A study of Rattus norvegicus with 4 samples.

Results

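The miRNAs described here are the 6 mature arms of the rat genes Mir140, Mir455 and Mir675, taken as every row of the deposited count table that carries one of these gene names, out of 740 mature miRNA names from 452 genes. Of the 6 arms, 4 had reads in every library (miR-140-3p, miR-140-5p, miR-455-3p and miR-455-5p), whereas the arms of Mir675 had 1 read in all libraries together. Small RNA was sequenced from 4 libraries of rat costochondral chondrocytes in their passage 4, with 1 library each of resting zone cells (RC-cells), the matrix vesicles made by them (RC-MVs), growth zone cells (GC-cells) and their matrix vesicles (GC-MVs). Per the study's methods the rats were male Sprague Dawley, and both zones of the rib cartilage were dissected and cultured apart, in the same medium with serum and ascorbic acid and with no other treatment named in the labels. MVs were pelleted by centrifugation after trypsin digestion of the cell layer, which was stopped with exosome-free serum. The growth zone cells come from the prehypertrophic and upper hypertrophic cartilage, and how many animals or cultures entered a library is not given in the sources used here.

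A primary miRNA transcript is cut to a hairpin, and the hairpin to a short duplex whose strands are named 5p and 3p after their side of the hairpin. One strand is loaded into an Argonaute protein and pairs with mRNAs through its seed, and the other is mostly degraded. All 3 genes have been tied to SOX9, the transcription factor that sets the chondrocyte fate. In the RefSeq annotation Mir140 lies inside Wwp2, a ubiquitin ligase gene, Mir455 inside Col27a1, which codes for a fibrillar collagen of cartilage, and Mir675 inside H19, an imprinted non-coding RNA. Mice that lack Mir140 have short bones, and miR-675 has been tied to collagen II levels in chondrocytes. Matrix vesicles are small membrane vesicles that stay bound in the cartilage matrix, where those of the growth zone can start mineral formation.

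The sequences below show where the matched arms lie in their hairpins, since the results turn on the strands. RefSeq sequences of the GRCr8 assembly were matched by name for 5 of the 6 arms, and miR-455-5p was not matched. The hairpins lie on the plus strand at chr19:52375293-52375391 for Mir140 and at chr5:81704834-81704911 for Mir455, and on the minus strand at chr1:207161752-207161835 for Mir675. In the 2 hairpins with reads in every library, capitals mark the matched mature arms, which for Mir140 are 5p and then 3p, and for Mir455 is 3p.
Mir140: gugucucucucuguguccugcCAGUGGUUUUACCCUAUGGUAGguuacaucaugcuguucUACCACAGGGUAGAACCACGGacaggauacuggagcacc
Mir455: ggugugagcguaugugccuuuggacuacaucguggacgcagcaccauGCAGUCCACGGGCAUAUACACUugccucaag

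In the mature arms, capitals mark the seed, bases 2 to 8 from the 5′ end.
miR-140-5p: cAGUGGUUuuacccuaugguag
miR-140-3p: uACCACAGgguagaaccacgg
miR-455-3p: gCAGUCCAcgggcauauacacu
miR-675-5p: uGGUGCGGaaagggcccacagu
miR-675-3p: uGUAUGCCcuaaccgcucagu

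No seed was shared among these 5 arms, nor with any other of the 692 mature miRNAs that have a single sequence in the RefSeq table. The closest other sequence to any of the 5 was that of miR-3561-3p, which differed from miR-140-3p by 6 single-base edits, and the other arms lay at least 8 edits from their nearest. Each of the 6 arms had 1 annotated locus, so no reads were divided between copies of a member. The counts give no position of the first base of a read, and forms of an arm that start at different bases are counted together.

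The libraries held 6517329 miRNA reads for RC-cells, 1108821 for RC-MVs, 7414467 for GC-cells and 982543 for GC-MVs. Levels are given as the percent of all miRNA reads of a library, with 95% Wilson intervals. Each group was a single library, so differences have no replicate check and carry no p-value. All intervals cover counting error only, and PCR copies of a molecule were counted as separate reads. The chondrocyte label had no independent check, since mRNA markers of cartilage were not counted and the cartilage marker miRNAs are the members themselves. Of the markers of other cell types, 6 blood miRNAs summed to 0.00121% in GC-cells, 0.00124% in RC-cells, 0.0885% in RC-MVs and 0.190% in GC-MVs, with reads for all 6 in 3 libraries and for 5 in GC-cells, where miR-223-3p was at 0. The pair of liver and serum miRNAs was likewise higher in MVs, with 0.417% (RC) and 1.18% (GC), than in cells, with 0.0243% (RC) and 0.0342% (GC). The difference was carried by miR-122-5p, whereas miR-192-5p was 0.0238% in RC-cells and 0.0162% in RC-MVs, and its ratio of GC-MVs to GC-cells was 1.03. The 4 muscle miRNAs summed to 0.000368% (RC) and 0.000715% (GC) in cells and 0.00171% (RC) and 0.00733% (GC) in MVs, and miR-133a-3p and miR-133b-3p were at 0 in RC-cells and miR-1-3p in RC-MVs. The 2 endothelial miRNAs summed to less in RC-MVs (0.0158%) than in RC-cells (0.0266%), and to more in GC-MVs (0.0640%) than in GC-cells (0.0223%). The part of such RNA in the differences between MVs and cells was not tested.

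miR-140-3p was the most abundant member in every library. The cells gave 24948 (RC) and 37484 (GC) reads of it and the MVs 10542 (RC) and 7799 (GC). In the resting zone its share was 0.383% for cells (95% interval from 0.378% to 0.388%) and 0.951% for MVs (0.933% to 0.969%). In the growth zone it was 0.506% for cells (0.5005% to 0.511%) and 0.794% for MVs (0.776% to 0.811%). Its share was thus higher in both MV libraries than in either cell library, and its rank among all miRNAs was 30 of 496 in RC-cells and 23 of 501 in GC-cells, against 20 of 431 in RC-MVs and 17 of 431 in GC-MVs.

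miR-140-5p, whose known targets include the histone deacetylase HDAC4, ran the other way. Its reads were 4626 in RC-cells and 5993 in GC-cells, against 94 in RC-MVs and 212 in GC-MVs. The cells had shares of 0.0710% (RC) and 0.0808% (GC), and the MVs of 0.00848% (RC, 0.00693% to 0.0104%) and 0.0216% (GC, 0.0189% to 0.0247%). The cell libraries were both above the MV libraries, and the lowest share was that of RC-MVs, where the arm ranked 157 of 431.

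For Mir455 the larger arm was 5p in all 4 libraries. For miR-455-5p the cells gave 4089 reads or 0.0627% (RC) and 3255 or 0.0439% (GC), and the MVs gave 262 or 0.0236% (RC) and 168 or 0.0171% (GC). As for miR-140-5p, both cell libraries lay above both MV libraries. For miR-455-3p the cells gave 632 reads or 0.00970% (RC) and 428 or 0.00577% (GC), and the MVs gave 185 or 0.0167% (RC) and 82 or 0.00835% (GC). Its highest share was in RC-MVs and its lowest in GC-cells. The interval in GC-MVs, 0.00672% to 0.0104%, overlapped that in RC-cells, 0.00897% to 0.0105%.

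The order of the arms in RC-MVs differed from that in the other libraries. In both cell libraries it was miR-140-3p, miR-140-5p, miR-455-5p and miR-455-3p, and no 2 intervals overlapped. In RC-MVs miR-140-5p was the lowest of the 4, below miR-455-3p. In GC-MVs the order was that of the cells, but the intervals of miR-140-5p and miR-455-5p (0.0147% to 0.0199%) overlapped.

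**Figure D1:**
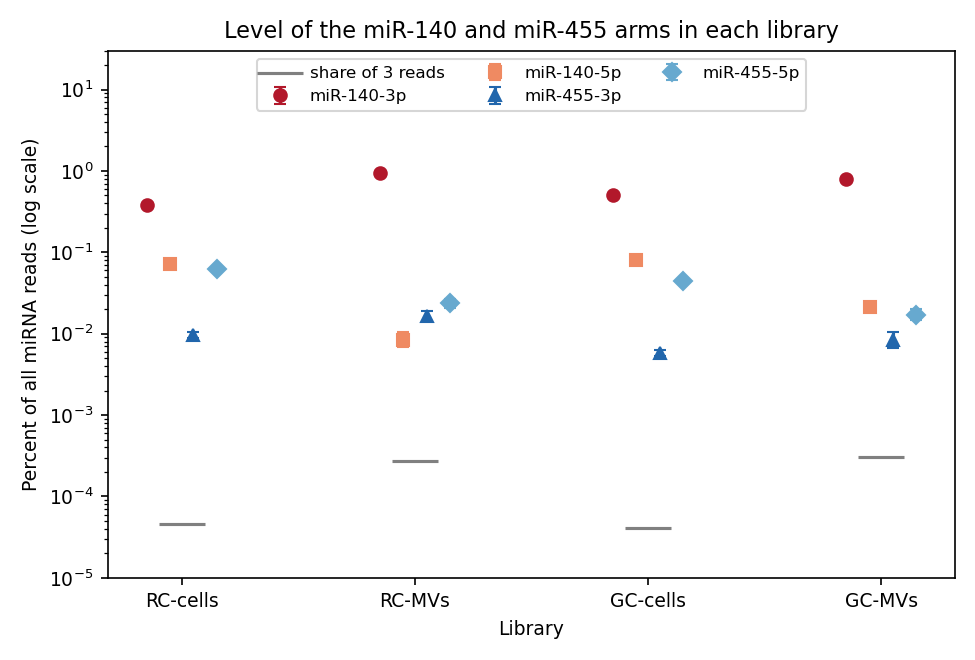
Percent of all miRNA reads (log axis) of the 4 arms with reads in every library, for the 4 libraries. Points are single libraries, bars are 95% Wilson intervals, which are smaller than the symbol for most points, and grey lines mark the share that 3 reads make up. miR-140-3p lies at 0.383% to 0.951%, and miR-140-5p goes from 0.0710% in RC-cells to 0.00848% in RC-MVs.

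Mir675 was at the limit of detection. miR-675-5p had 0 reads in all 4 libraries, and miR-675-3p had 1 read in GC-cells and 0 in the others. A count of 0 of 6517329 reads in RC-cells allows a share of up to 4.60e-05%, set by 3 reads, and the limit for 0 reads was 4.05e-05% for GC-cells, 0.000271% for RC-MVs and 0.000305% for GC-MVs. The single read in GC-cells was 1.35e-05% of miRNA reads, with a 95% interval from 2.38e-06% to 7.64e-05%. No ratio was formed for this gene. Reads of the H19 transcript itself were not in the table.

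The comparison of MVs with the cells that made them asks which miRNAs were relatively richer in vesicles. In the resting zone, the RC-MVs had a 2.48-fold higher share of miR-140-3p than the RC-cells (95% exact interval of the ratio from 2.43 to 2.54), and their share of miR-140-5p was 8.37-fold lower (6.83 to 10.4). The share of miR-455-5p was 2.66-fold lower in RC-MVs (2.34 to 3.02). miR-455-3p was 1.72-fold higher (1.45 to 2.03), which did not reach the 2-fold threshold of a call. Hence 1 arm was called higher and 2 were called lower, while among the 414 miRNAs with reads in both libraries 33.6% were called higher and 30.4% lower. The median log2 ratio of the 4 arms was -0.31, beside 0.08 over all 414.

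Of the 414 miRNAs, 29 had a lower ratio than miR-140-5p and 116 a higher ratio than miR-140-3p, so that the arms of Mir140 stood far apart within the spread of all miRNAs. A share is relative to all miRNA reads of its library, so a lower share in MVs does not show a loss of copies. A lower share can come from fewer vesicles that hold the miRNA, from fewer copies per vesicle or from more reads of other miRNAs. These cannot be told apart from shares in pooled vesicles.

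In the growth zone, the directions were the same and the sizes smaller for Mir140. The share of miR-140-3p was 1.57-fold higher in GC-MVs than in GC-cells (1.53 to 1.61), and that of miR-140-5p was 3.75-fold lower (3.27 to 4.32). miR-455-5p was 2.57-fold lower (2.20 to 3.02) and miR-455-3p was 1.45-fold higher (1.13 to 1.83). Both 5p arms were called lower and 0 arms were called higher, beside 25.2% called lower and 32.1% called higher of 417 miRNAs. The median log2 ratio of the 4 arms was -0.41, beside 0.13 over all 417. Only 41 of the 417 miRNAs had a lower ratio than miR-140-5p.

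**Figure D2:**
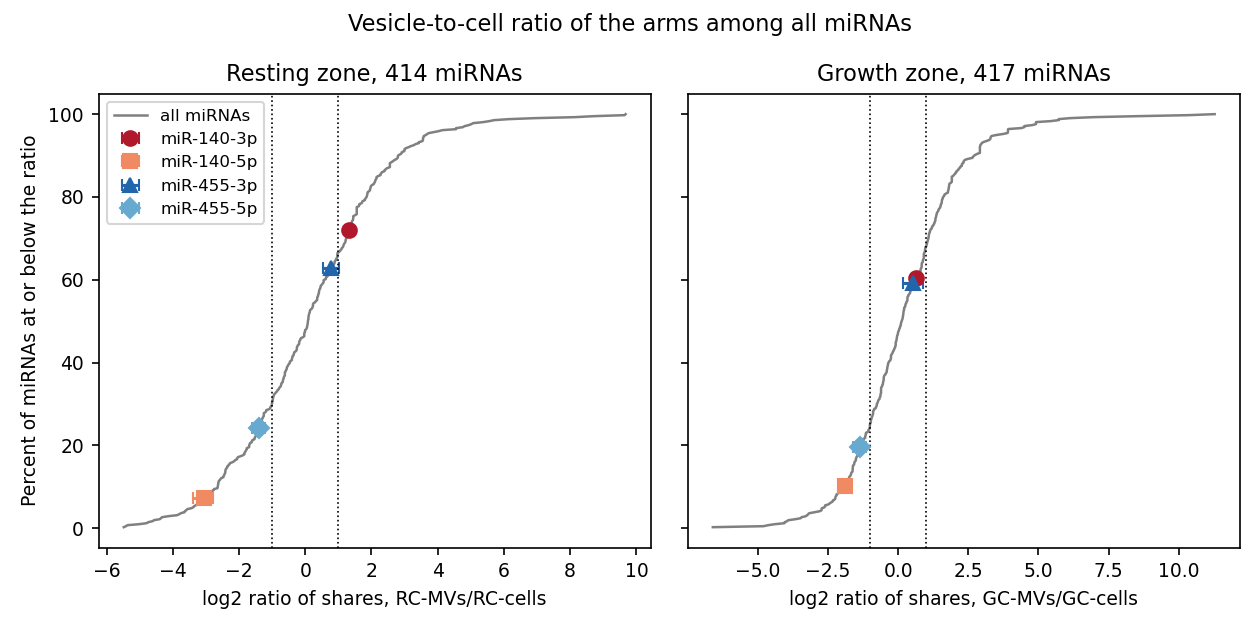
Vesicle-to-cell ratio of shares (x axis, log2) of all miRNAs with reads in both libraries of a zone, drawn as a cumulative curve (y axis, percent of miRNAs at or below the ratio). Coloured points are the 4 arms with 95% exact counting intervals, and dotted lines mark 2-fold. Both 5p arms lie to the left of the lower line in both zones, and miR-140-3p lies beyond the upper line in the resting zone, at 2.48-fold, and inside it in the growth zone, at 1.57-fold.

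The ratio of MVs to cells was then compared between the zones. For miR-140-3p it was 1.58 times as high in the resting zone as in the growth zone (1.53 to 1.64), and for miR-140-5p it was 2.24 times lower in the resting zone (1.75 to 2.86). Both differences were larger than counting error. Of the 261 other miRNAs counted 10 times or more in each of the 4 libraries, 21 had a lower log2 difference between zones than miR-140-5p, at -1.16, and 48 a higher one than miR-140-3p, at 0.66, with a median of -0.00 over all 262. With totals that omitted miR-143-3p, miR-22-3p and miR-21-5p the difference for miR-140-3p was 0.35. The log2 difference was 0.25 for miR-455-3p (-0.16 to 0.67) and -0.05 for miR-455-5p (-0.34 to 0.24). Both intervals include 0, and the sign for miR-455-5p turned with the scaling, to 0.09 by TMM normalization and 0.06 by size factors. The sign for miR-455-3p turned to -0.06 with the reduced totals.

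When both arms of a gene were added, the share of Mir140 went from 0.454% in RC-cells to 0.959% in RC-MVs, 2.11-fold (2.07 to 2.16), and from 0.586% in GC-cells to 0.815% in GC-MVs, 1.39-fold (1.36 to 1.42). The share of Mir455 was 0.0724% in RC-cells and 0.0403% in RC-MVs, 1.80-fold lower (1.63 to 1.98), and 0.0497% in GC-cells and 0.0254% in GC-MVs, 1.95-fold lower (1.72 to 2.23). The sums followed the larger arm of each gene and did not show that the arms moved in opposite directions.

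The ratio of the 3p to the 5p arm is taken within a library, so that depth and scaling cancel. For Mir140 there were 5.39 reads of 3p for each read of 5p in RC-cells (95% exact interval from 5.23 to 5.57) and 6.25 in GC-cells (6.09 to 6.43). The ratio was 112 in RC-MVs (91.6 to 139) and 36.8 in GC-MVs (32.1 to 42.4). Of the reads of both arms, 3p made up 84.4% (RC) and 86.2% (GC) for cells and 99.1% (RC) and 97.4% (GC) for MVs. The cell libraries thus lay close together, and each MV library lay well above both.

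For Mir455 the 5p arm prevailed, with 6.47 reads of 5p for each read of 3p in RC-cells (5.95 to 7.05) and 7.61 in GC-cells (6.87 to 8.43). In MVs this was 1.42 in RC-MVs (1.17 to 1.72) and 2.05 in GC-MVs (1.56 to 2.70). Of the reads of both arms, 3p made up 13.4% (RC) and 11.6% (GC) for cells, and 41.4% (RC, 36.8% to 46.1%) and 32.8% (GC, 27.0% to 39.0%) for MVs. The 3p share was therefore higher in MVs for both genes, although 3p is the larger arm of Mir140 and the smaller arm of Mir455.

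The 3p-to-5p ratio of Mir140 was 20.8-fold higher for RC-MVs than for RC-cells (16.9 to 25.5) and 5.88-fold higher for GC-MVs than for GC-cells (5.12 to 6.76). The change in the resting zone was 3.54 times that in the growth zone (2.76 to 4.53). For Mir455 the ratio was 4.57-fold higher in the resting zone (3.72 to 5.61) and 3.71-fold higher in the growth zone (2.80 to 4.92). These differed by a factor of 1.23 with an interval from 0.868 to 1.75, which includes 1. Between the cell libraries, the 3p-to-5p ratio of Mir140 in RC-cells was 0.862 times that in GC-cells (0.827 to 0.899), so the zones differed far more in MVs, where the factor was 3.05 (2.39 to 3.89).

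In all, 71 precursors had at least 10 reads of both arms in every library. The 3p-to-5p ratio was at least 2-fold higher in MVs for 28 of them, or 39.4%, in the resting zone and for 23, or 32.4%, in the growth zone, and at least 2-fold lower for 26 and 18. The median log2 changes of the 2 zones were 0.29 and 0.31. Mir140 and Mir455 were both among the 19 with at least a 2-fold higher ratio in both zones. In the resting zone the ratio rose more than that of Mir140 in 2 of the 70 other precursors, Mir30c2 and Mir30c1. These share the same mature 5p name, so that their reads are uncertain. The same limit applies to any other precursor with an arm name shared by several loci, here and in the counts that follow. In the growth zone 7 of 70 rose more than Mir140, Mir30c1 among them. For Mir455 there were 13 (RC) and 12 (GC) others that rose more. By size of change in either direction, 5 (RC) and 13 (GC) of the 70 others exceeded Mir140. By the same measure 27 (RC) and 22 (GC) others exceeded Mir455.

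Mir140 and Mir455 differed in whether the arm that gained was the larger or the smaller one. In 69 of the 71 precursors the same arm had more reads in both cell libraries. Among these, the smaller arm gained at least 2-fold on the larger in MVs of both zones for 25 precursors, Mir455 among them. The larger arm gained in this way for 11, Mir140 among them. The requirement of 10 reads in MVs can keep out precursors whose smaller arm was lost there.

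**Figure D3:**
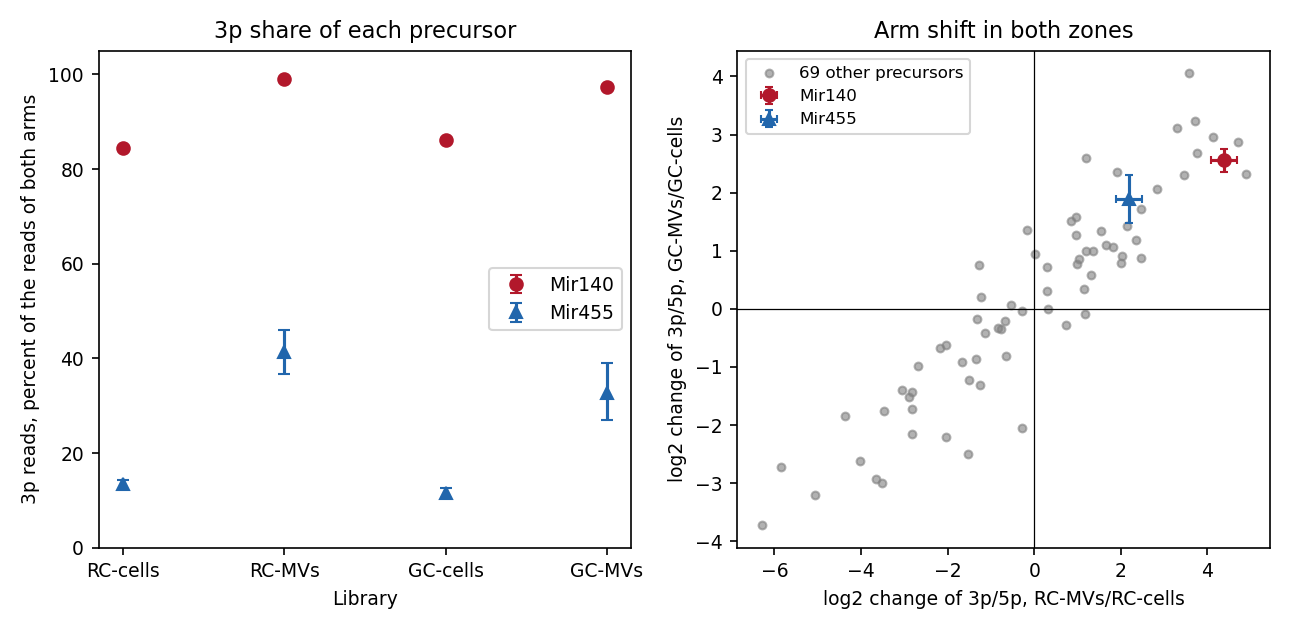
Left, reads of the 3p arm as a percent of the reads of both arms in each library, with 95% exact intervals. Right, log2 change of the 3p-to-5p ratio from cells to MVs in the resting zone (x axis) and the growth zone (y axis) for 71 precursors, with 95% counting intervals for Mir140 and Mir455. The 3p share of Mir140 goes from 84.4% to 99.1% in the resting zone, and both genes lie above 0 on both axes.

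The zones were compared next, which asks how the state of maturation goes with these miRNAs. Between RC-cells and GC-cells 0 of the 4 arms reached 2-fold, beside 13.7% of 474 miRNAs called higher and 5.7% called lower in RC-cells. The share of miR-140-3p was 1.32-fold lower in RC-cells (1.30 to 1.34) and that of miR-140-5p 1.14-fold lower (1.10 to 1.18). The arms of Mir455 were higher in RC-cells, miR-455-5p by 1.43-fold (1.36 to 1.497) and miR-455-3p by 1.68-fold (1.48 to 1.90). These directions held under all 3 other scalings tried. Mir140 and Mir455 thus lay on opposite sides of equality between the zones, with both arms of a gene on the same side. The median log2 ratio of the 4 arms was 0.16, beside 0.24 over all 474.

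Between the MV libraries, the share of miR-140-5p in RC-MVs was 2.55-fold below that in GC-MVs (1.99 to 3.28). It was the 1 arm called, beside 24.7% of 397 miRNAs called higher and 14.6% called lower in RC-MVs, and 28 of the 397 had a lower ratio. The lower end of its interval lay just under 2-fold, so that the call was lost when the whole interval had to lie beyond 2-fold. miR-455-3p was 1.999-fold higher in RC-MVs (1.53 to 2.63) and fell just short of a call. With totals that omitted miR-143-3p, miR-22-3p and miR-21-5p, its ratio was 1.29 and that of miR-140-5p was 0.254, in place of 0.393. The shares of miR-455-5p and miR-140-3p were 1.38-fold (1.13 to 1.69) and 1.198-fold (1.16 to 1.23) higher in RC-MVs, but both were lower in RC-MVs, at ratios of 0.893 and 0.774, with the same totals. The median log2 ratio of the 4 arms was 0.36, beside 0.15 over all 397.

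The choice of the arms did not use their base composition. miR-140-3p had 57.1% of G and C bases, miR-140-5p 45.5% and miR-455-3p 54.5%. Of the miRNAs with at least 10 reads in RC-MVs and RC-cells, 265 of 293 (90.4%) had a sequence, and their median was 47.8%. Across these the Spearman rho between the percent of G and C and the log2 vesicle-to-cell ratio in this zone was 0.56, and in the growth zone it was 0.51 across 251 of 275 miRNAs (91.3%). The points of a zone share the same pair of libraries and are not independent replicates, so both are descriptions. In the resting zone the 92 miRNAs at least 2-fold higher in MVs had a median of 54.5%, and the 74 at least 2-fold lower had 40.9%. The medians were the same in the growth zone, over 78 and 56 miRNAs.

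Of the 3 arms with a sequence and with reads in every library, miR-140-3p and miR-455-3p had more G and C bases and higher vesicle-to-cell ratios than miR-140-5p, while no base composition was at hand for miR-455-5p. The 3p arm of Mir140 had 11.7 percentage points more G and C than its 5p arm, a gap exceeded by 9 of 61 other precursors with both sequences. Across these 62 precursors, the gap between arms and the log2 change of the 3p-to-5p ratio had a Spearman rho of 0.49 for resting zone libraries and 0.40 for those of the growth zone. Base composition moved with the ratios in this way, and its part in them was not tested.

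**Figure D4:**
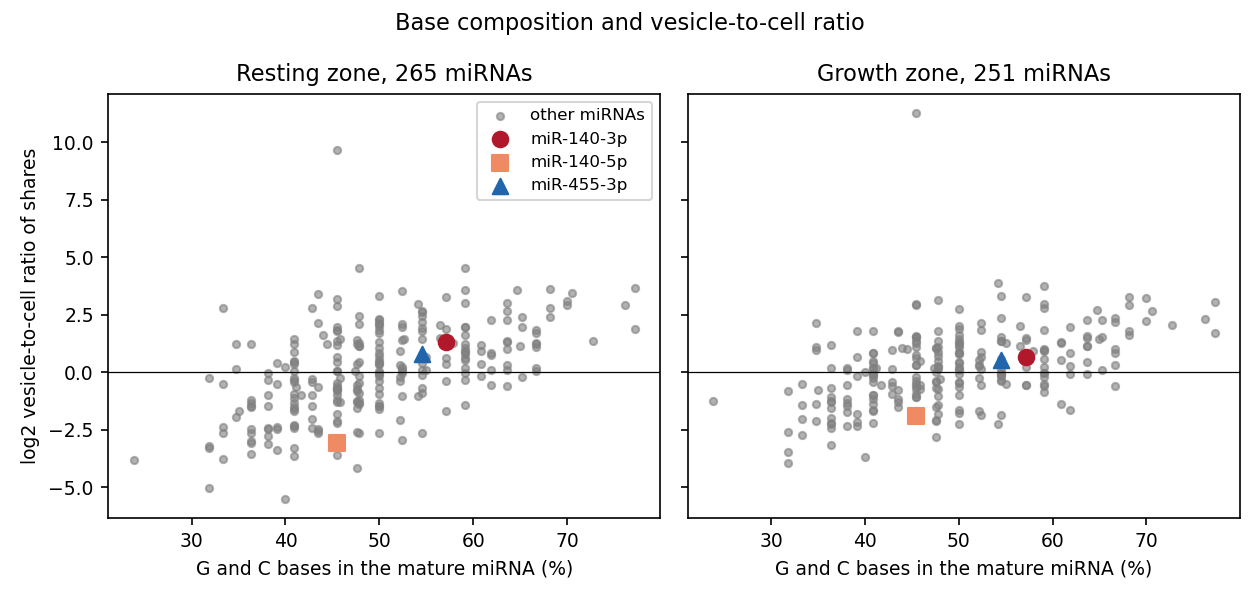
Percent of G and C bases in the mature sequence (x axis) and log2 vesicle-to-cell ratio of shares (y axis) of miRNAs counted 10 times or more in each library of a zone, 265 for the resting and 251 for the growth zone. Points are single miRNAs. miR-140-3p at 57.1% lies above 0 and miR-140-5p at 45.5% lies below 0 in both zones.

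The miRNAs most like a member across the 4 libraries were sought among the 131 with at least 100 reads in each, which left out miR-140-5p and miR-455-3p. Likeness was the Euclidean distance between log2 percents after the mean over the 4 libraries was taken off. Nearest to miR-140-3p were miR-193b-3p at 0.32, miR-210-3p, the miRNA induced by hypoxia, at 0.35, and miR-149-5p at 0.47. Nearest to miR-455-5p were miR-495 at 0.16, let-7a-5p at 0.19 and let-7e-5p at 0.24. The let-7 values are uncertain because reads of near-identical family members can be exchanged in counting.

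A list of 13 other miRNAs with known roles in cartilage was set beside the members. It held miRNAs that target SOX9, those that target HDAC4, which holds back hypertrophy, those that target MMP13, the collagenase of hypertrophic cartilage, and both arms of Mir483, which lies in the Igf2 gene next to H19. In the resting zone 10 could be compared, and 2 were called higher and 6 called lower in RC-MVs, with a median log2 ratio of -1.25, beside 33.6% higher, 30.4% lower and a median of 0.08 over all 414. In the growth zone 3 of 11 were higher and 4 lower, with a median of -0.54, beside 32.1% higher, 25.2% lower and a median of 0.13 over all 417.

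Of the miRNAs that target SOX9, miR-145-5p was 0.288% in RC-cells and 0.496% in GC-cells, against 0.547% in RC-MVs and 0.626% in GC-MVs. miR-495 was 2.76-fold lower in RC-MVs and 2.95-fold lower in GC-MVs than in the cells, and miR-101a-3p was 1.43-fold lower in both. Among those that target HDAC4, miR-381-3p was 2.37-fold and 2.04-fold higher in MVs of the resting and the growth zone, while miR-365-3p had 1002 (RC) and 1466 (GC) reads in the cells and 4 (RC) and 2 (GC) in the MVs, a 42.6-fold lower share in the resting zone. miR-222-3p was 2.04-fold lower in RC-MVs and 1.45-fold lower in GC-MVs. The muscle miRNAs that target HDAC4, miR-1-3p and miR-206-3p, had at most 29 reads in any library. They made up 2 of the 3 higher calls in the growth zone, at 2.87-fold for miR-1-3p and 7.82-fold for miR-206-3p, and miR-206-3p was 3.92-fold higher in RC-MVs.

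The miRNAs that target MMP13 were all lower in MVs. miR-27b-3p made up 3.11% of miRNA reads of RC-cells and 0.519% of RC-MVs, and 1.61% of GC-cells and 0.374% of GC-MVs. The share of miR-148a-3p was 5.35-fold lower in RC-MVs and 1.92-fold lower in GC-MVs. miR-9a-5p had 4 (RC) and 6 (GC) reads in the MVs, against 76 and 114 in the cells, which gave shares 3.23-fold and 2.52-fold lower. The neighbours of Mir675 were also near 0, as miR-483-3p had 0 reads in every library and miR-483-5p had 2 reads in GC-MVs and 0 in the others.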

How the data were processed

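The authors extracted RNA with TRizol, sequenced it on an Illumina HiSeq, used Bowtie2 for alignment against Rnor_6.0 and tabulated miRNAs with miARma-Seq. The deposited values are raw counts of reads, 1 row for each miRNA locus. Tool versions, trimming and how reads with several matching loci were counted are not given in the sources used here. The adapter ligation of small RNA libraries can favour some sequences, so an arm ratio is a ratio of reads and not of molecules.

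Counts of loci with the same mature name were added (774 loci, 740 names) and divided by all miRNA reads of the library. A ratio of percents was called at 2-fold where each library had at least 1 read. Wilson intervals are given for shares, and for ratios and arm shares exact Clopper-Pearson intervals, while those of ratios of ratios use the inverse counts, all at 95%. With 1 library per group, edgeR and DESeq2 were used for scaling factors only and no test was made. The steps were tested on simulated data. Sequences came from RefSeq tables of GRCr8, which gave a single mature sequence for 659 of the 740 names. Host genes were found by position within GRCr8, and no coordinate was carried between builds. The PCR array and RT-qPCR were not analysed here.

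The miRNAs named are all arms of the 3 genes, the list of 13 other cartilage miRNAs, the markers of other cell types and, for each member with at least 100 reads in every library, its 3 nearest miRNAs. The precursors Mir30c1 and Mir30c2 were named after their values were seen. The members and lists were chosen with earlier results of these data known. Python 3.11.15, numpy 2.4.6, pandas 2.3.3, scipy 1.17.1, matplotlib 3.10.9, R 4.3.3, edgeR 4.0.16 and DESeq2 1.42.0 were used.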

Additional observations from a re-analysis of the deposited data

How the results depend on the processing

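The labels give the libraries no replicate numbers, so no fit with a replicate block was made. A fit of MVs against cells blocked by zone, which would treat the zones as replicates, was not run. No library could be left out, since each group has 1. The alternatives were scaling by TMM or by size factors, totals that omit miR-143-3p, miR-22-3p and miR-21-5p (reduced totals), a pseudocount of 0.5, each locus as deposited, a minimum of 10 reads, a 4-fold threshold, and a call only where the whole interval lay beyond 2-fold. With the pseudocount and with loci as deposited, the 16 ratios stayed inside their counting intervals, as did the arm ratios and their changes with the pseudocount. TMM normalization moved all log2 ratios by -0.09 for RC-MVs against RC-cells, -0.22 for GC-MVs against GC-cells, -0.34 between the cell libraries and -0.20 between the MV libraries (RC over GC). Size factors moved them by -0.04, -0.15, -0.36 and -0.25, and reduced totals by -0.21, 0.10, -0.32 and -0.63. No called arm changed direction. The values that left their counting intervals or changed sign are as follows, in the order TMM, size factors and reduced totals. For RC-MVs against RC-cells, the ratio of miR-140-3p was 2.33, 2.42 and 2.15, and that of miR-455-5p was 0.325 with reduced totals. For GC-MVs against GC-cells, miR-140-3p was at 1.34, 1.42 and 1.69, and miR-140-5p at 0.228 with TMM. For RC-cells against GC-cells, miR-140-3p was at 0.600, 0.591 and 0.607, miR-140-5p at 0.696, 0.686 and 0.705, miR-455-3p at 1.33, 1.31 and 1.35, and miR-455-5p at 1.13, 1.12 and 1.15. For RC-MVs against GC-MVs, miR-140-3p was at 1.04, 1.01 and 0.774, and with reduced totals miR-140-5p was at 0.254, miR-455-3p at 1.29 and miR-455-5p at 0.893. The difference between zones in the log2 vesicle-to-cell ratio of miR-140-3p was 0.80, 0.77 and 0.35, and that of miR-455-5p turned from -0.05 to 0.085 and 0.060 and was -0.36 with reduced totals. That of miR-455-3p turned from 0.25 to -0.062 with reduced totals, a setting chosen for these differences after seeing the data. With the whole interval beyond 2-fold, 0 arms in place of 1 were lower in RC-MVs than in GC-MVs. Over all miRNAs, the percent past the threshold in either direction was 64.0, 57.3, 19.4 and 39.3 in the 4 comparisons, 43.2, 32.1, 5.06 and 15.4 with the whole interval beyond 2-fold, and 34.5, 24.2, 4.22 and 8.06 at 4-fold. With at least 10 reads in each library it was 62.8, 52.4, 13.2 and 35.8. Depth limits the MV libraries most, where miR-455-3p and miR-140-5p rest on as few as 82 and 94 reads.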
